A study of Homo sapiens with 2 samples.

Results

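The genes of the cytosolic ribosomal proteins were described in K562 cells after 48 h in 1 µM cabozantinib (XL184), a drug that blocks receptor tyrosine kinases such as MET, AXL and the VEGF receptors, and after 48 h in its solvent DMSO. K562 is a human erythroid leukemia line that carries the BCR-ABL1 fusion. The cells of both groups were asynchronous and grew in RPMI medium with 10% FBS. RNA was sequenced from 1 library per group, so no difference here has a replicate check. Differences are given by their size with an exact (Clopper-Pearson) 95% counting interval, which leaves out the variation between cultures and library preparations. Members were taken by symbol: names made of RPL or RPS, a number and at most a short suffix, plus RPSA, RPLP0, RPLP1 and RPLP2. The kinases of the RPS6K family and pseudogenes were left out. The rule found 84 of the 25702 genes, 52 of the large and 32 of the small subunit, spread over 21 chromosomes. Of these, 77 are the canonical genes, 46 large and 31 small, and 7 are paralogs of a canonical gene. A gene was taken as measured at 1 CPM (counts per 1000000 counts) or more in a library, and 82 members passed. The 2 others were RPL3L, a paralog of muscle, with 2 counts in each library, and RPL10L, a paralog of testis, with 0 counts with cabozantinib and 1 count in DMSO.

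The ribosome joins a large subunit, which forms peptide bonds, and a small subunit, which reads the mRNA. Cells make the protein parts in balanced amounts from single genes on many chromosomes. Most of their mRNAs start with a cytosine followed by a run of pyrimidines, the 5′ terminal oligopyrimidine (TOP) motif, through which mTORC1 and LARP1 set their translation and stability together. Red cell precursors are sensitive to a loss of these genes: mutations in several of them cause Diamond-Blackfan anemia.

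RefSeq promoter windows (assembly GRCh38.p14) were found for 67 of the 84 members. A start at C followed without a break by C or T, 5 or more bases in all, stood at the annotated start of 43 of the 67 (64.2%), against 4.04% of all 27305 promoters in that table and 5.55% of those of measured genes. The share was 61.9% of the large and 68.0% of the small subunit promoters. Of the 5 paralogs with a window only RPL22L1 had the run. The windows printed next, 40 bases before and 20 from the start, belong to the members the results turn on. Capitals mark the run, and a window without capitals has none at the annotated start base.
RPS19, chr19:41860215-41860274, plus strand: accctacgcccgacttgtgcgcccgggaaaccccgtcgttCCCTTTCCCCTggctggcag
RPL39, chrX:119791611-119791670, minus strand: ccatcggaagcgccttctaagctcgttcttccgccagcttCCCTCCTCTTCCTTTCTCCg
RPLP2, chr11:809927-809986, plus strand: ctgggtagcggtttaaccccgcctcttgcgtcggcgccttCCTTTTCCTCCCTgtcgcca
RPL21, chr13:27251518-27251577, plus strand: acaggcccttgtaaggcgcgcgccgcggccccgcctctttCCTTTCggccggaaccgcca
RPL26, chr17:8383174-8383233, minus strand: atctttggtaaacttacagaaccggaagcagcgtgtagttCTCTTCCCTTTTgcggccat
RPL26L1, chr5:172958689-172958748, plus strand: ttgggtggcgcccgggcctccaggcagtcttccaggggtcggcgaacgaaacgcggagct
RPS27, chr1:153990722-153990781, plus strand: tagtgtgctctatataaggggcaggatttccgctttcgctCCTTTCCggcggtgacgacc
RPS27L, chr15:63157458-63157517, minus strand: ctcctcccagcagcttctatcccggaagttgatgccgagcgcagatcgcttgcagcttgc
RPS28, chr19:8321456-8321515, plus strand: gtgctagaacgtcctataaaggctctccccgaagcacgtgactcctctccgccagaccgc
RPL13, chr16:89560617-89560676, plus strand: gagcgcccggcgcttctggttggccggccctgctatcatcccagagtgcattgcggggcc
RPL39 had the longest run of the 67, 19 bases, and RPS19 had 11. RPL26 and RPS27 had runs of 12 and 7 bases, whereas their paralogs RPL26L1 and RPS27L start at G in this table. The annotated start can lie a few bases from the one K562 uses, so a missing run says only that these letters are not at this base. The sequence CCGGAAG, on either strand of the whole promoter of 250 bases before and 50 after the start, stood in 34.3% of the member promoters, against 20.8% of the promoters of measured genes. AAGATGGC, searched the same way, stood in 10.4% against 5.88%. CCGGAAG is the core that ETS factors bind and AAGATGGC one that YY1 binds, and the ends of these sequences can overlap in AAG.

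The ribosomal protein genes differed little between the libraries. On the scale of TMM normalization, on which the median of all measured genes was 0.01, their median log2 ratio (cabozantinib over DMSO) was 0.10, with quartiles of -0.00 and 0.18. The spread between the quartiles was 0.18 for the members and 0.55 for all 12536 measured genes. Within 1.2-fold were 70 of 82 members (85.4%), against 48.0% of all measured genes and 55.8% of the 2702 genes of at least 100 CPM. Past 1.5-fold with an interval that did not hold no change, RPS28 and RPL21 were higher and RPL39L was lower. RPL21, at 1.51-fold, lost this call under scaling by total counts or by the upper quartile. Among all measured genes 8.15% were higher and 12.3% lower by that rule. Past 1.2-fold by the same rule 11 members were higher and 1 lower, against 23.1% of measured genes higher and 23.4% lower, and against 27.3% higher and 16.9% lower among genes of at least 100 CPM. By total counts, on which the median of all measured genes was -0.07, 6 members were higher and 3 lower past 1.2-fold. The shares of all genes above are on the TMM scale and are not given for total counts. The 11 were RPS28, RPL21, RPS26, RPL9, RPL36A, RPS19, RPL26L1, RPS27A, RPL23A, RPL39 and RPL6.

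**Figure D1:**
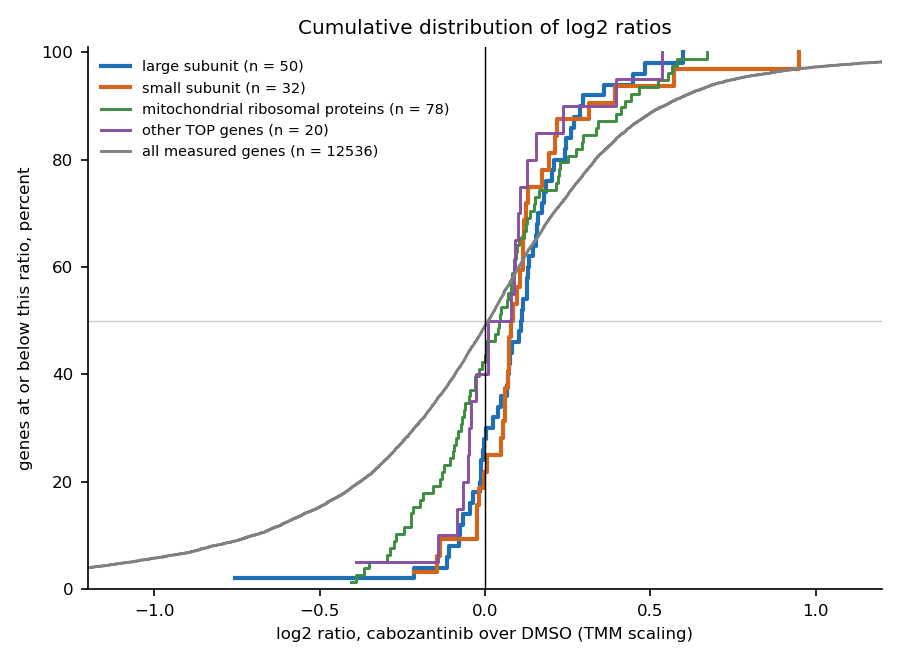
Cumulative percent of genes (vertical axis) at or below each log2 ratio of cabozantinib over DMSO on the TMM scale (horizontal axis, shown from -1.2 to 1.2), for the large and small subunit genes, the mitochondrial ribosomal protein genes, other TOP genes and all measured genes. The curves of the 50 large and 32 small subunit genes are steep and lie close together, with medians of 0.11 and 0.08, and the curve of all 12536 measured genes is wide around 0.01.

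The direction of the family depended on the scaling. With TMM 61 members (74.4% of those measured) lay above 0 and 21 below. Above 0 were also 51.0% of all measured genes and 61.0% of the genes of at least 100 CPM. By total counts, which lowers every log2 ratio by 0.08, the median was 0.01, that of the small subunit was -0.003, and members such as RPL11 and RPS6 turn from just above to just below 0. Members held 4.57% of all counts with cabozantinib (interval 4.57% to 4.58%) and 4.66% in DMSO (4.65% to 4.67%). Without the mitochondrial genes and the globins in the total, the share was 5.01% with cabozantinib and 4.94% in DMSO, the other way round. The globins summed to 39542 CPM with cabozantinib and 13795 CPM in DMSO, and their part in these shares was not tested beyond that recount. The distance of the members' median from that of all measured genes was 0.09 under both TMM and total counts, but the 66 members of at least 100 CPM lay at -0.004 from the median of all genes of that level, which was 0.08. Measured against the members' own median, a comparison that no scaling moves, 26 intervals lay above it, 29 below it and 27 held it.

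The medians of the large and the small subunit lay close together. The median log2 ratio was 0.11 for the 50 measured large subunit genes and 0.08 for the 32 small subunit genes, a difference of 0.03. The sign of the difference depended on the summary: it was -0.02 on means and -0.02 on summed CPM. Large subunit genes took 60.05% of the member counts with cabozantinib (59.96% to 60.14%) and 60.37% in DMSO (60.28% to 60.46%). This gap of counts is larger than counting error, and whether it is larger than the variation between cultures cannot be told from 1 library per group. Of the 50 large subunit genes 7 were higher and 1 lower past 1.2-fold, and of the 32 small subunit genes 4 were higher and 0 lower. The shares of all measured genes were 23.1% higher and 23.4% lower. Relative to the median of all members, the interval lay above it in 18 large and 8 small subunit genes, and below it in 20 large and 9 small subunit genes.

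**Figure D2:**
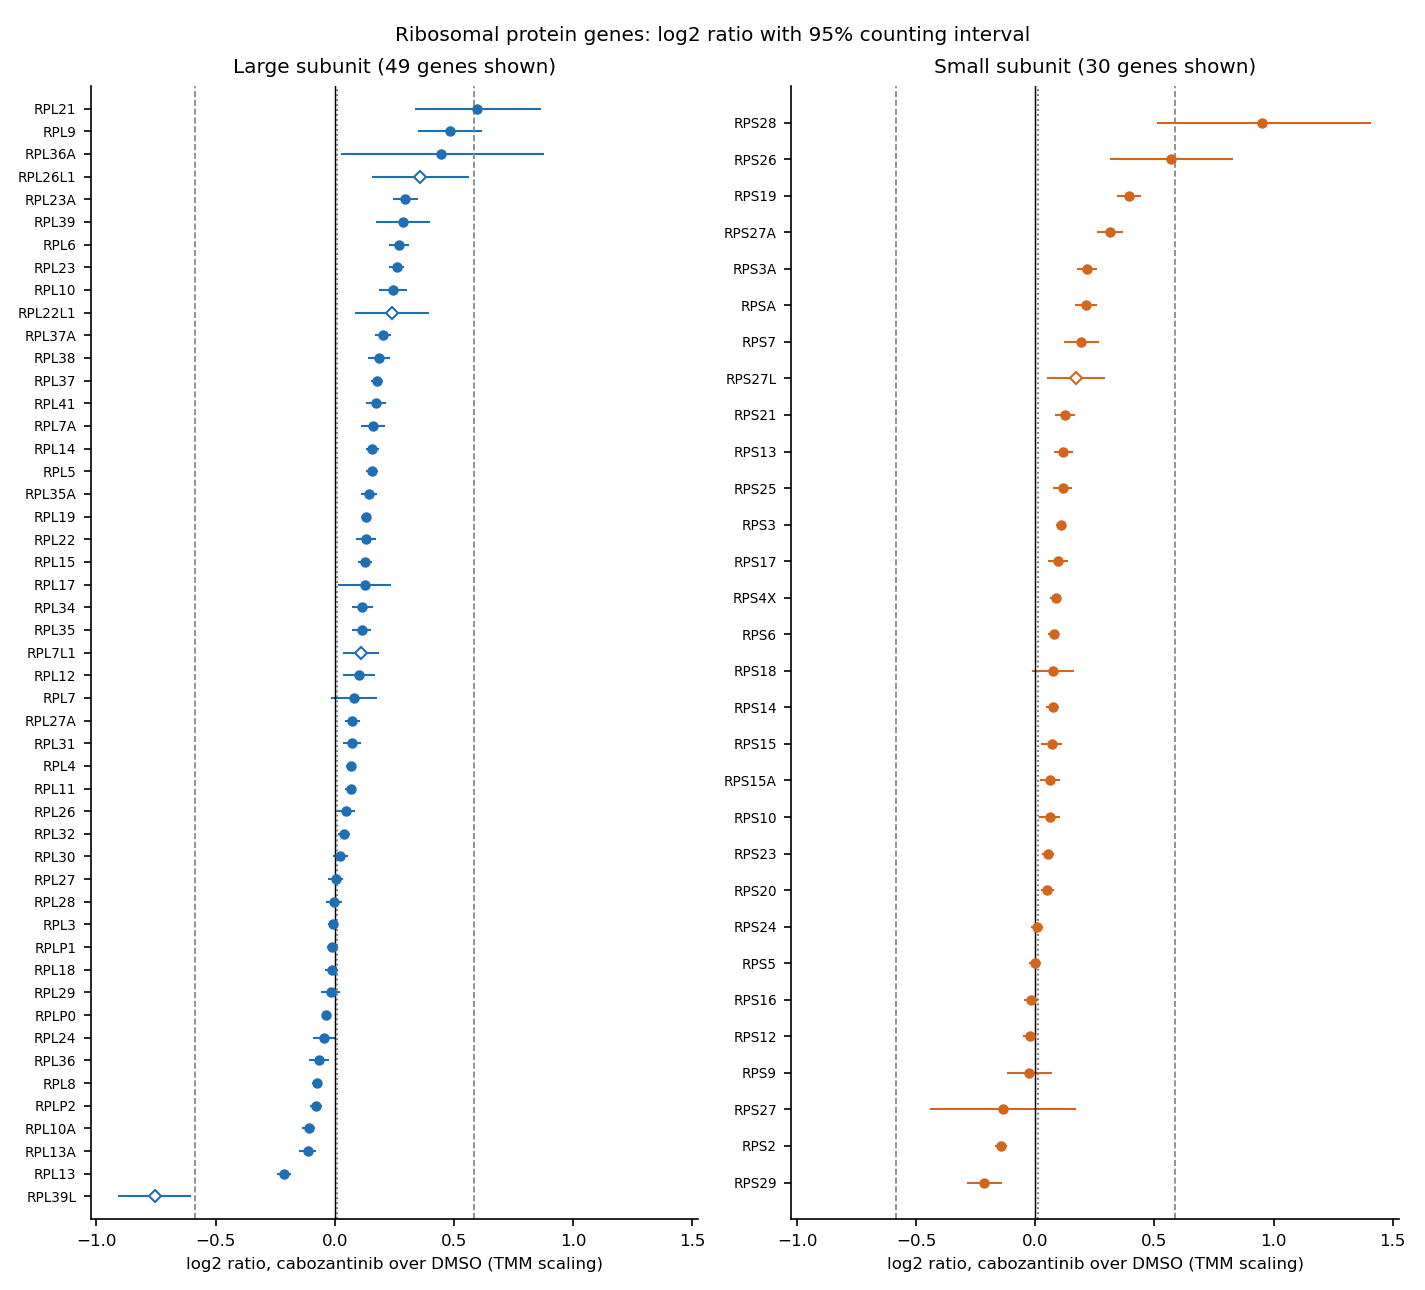
Log2 ratio of cabozantinib over DMSO (horizontal axis, TMM scale) of the measured members, a few of which are not shown, with the large subunit on the left and the small subunit on the right; bars are 95% counting intervals, open diamonds are paralogs, the dotted line is the median of all measured genes (0.01) and the dashed lines mark 1.5-fold. Most members lie between 0 and 0.2, RPS28 (0.95) and RPL39L (-0.75) lie farthest out, and the widest intervals belong to genes of few counts.

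Among the large subunit genes that were higher, RPL21 (hg19 chromosome 13, 27825692 to 27830705) had 294 counts (11.9 CPM) with cabozantinib and 202 counts (7.84 CPM) in DMSO. Its log2 ratio was 0.60 (0.34 to 0.86). RPL9 (chromosome 4, 39455744 to 39460568) had 1067 counts with cabozantinib and 794 in DMSO, a log2 ratio of 0.48 (0.35 to 0.62). RPL21 and RPL9 are low genes of the family, at 33.9 and 80.7 TPM on average (a level per length). Among genes of more counts, RPL23A, which lies at the exit of the nascent chain, had 262 CPM with cabozantinib and 213 CPM in DMSO (log2 ratio 0.30, 0.24 to 0.35). RPL23, which also binds MDM2, had 703 CPM with cabozantinib and 587 CPM in DMSO (log2 ratio 0.26, 0.23 to 0.29). RPL6 had 367 CPM with cabozantinib and 304 CPM in DMSO, a log2 ratio of 0.27. All of these lay above 0 by total counts too. A gene on the opposite strand (Entrez 100506435) covers 16.1% of the RPL6 exons and had 0 counts in both libraries.

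On the lower side, RPL13 (chromosome 16, 89627090 to 89629848) had 16647 counts with cabozantinib and 20076 in DMSO, a log2 ratio of -0.21 (-0.24 to -0.18). Its window has a run of only 2 bases at the annotated start. RPL13A, a protein that can leave the ribosome to silence inflammatory mRNAs, had a log2 ratio of -0.11 (-0.15 to -0.08) on 12458 counts with cabozantinib and 14026 in DMSO. A gene on the opposite strand (Entrez 100287619) covers 51.5% of the RPL13A exons and had 7 counts with cabozantinib and 1 in DMSO. The strand setting of the counting is not given. RPL10A had 782 CPM with cabozantinib and 844 CPM in DMSO, a log2 ratio of -0.11 (-0.14 to -0.08). All 3 stayed within 1.2-fold on the TMM scale, but by total counts RPL13 lay past 1.2-fold.

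Among the small subunit genes, RPS28 (chromosome 19, 8386384 to 8387280), which lies near the mRNA exit, had 123 counts (4.97 CPM) with cabozantinib and 66 counts (2.56 CPM) in DMSO. Its log2 ratio of 0.95 (0.51 to 1.41) was the largest of the family, on the fewest counts of any measured small subunit gene. RPS26, which contacts the mRNA upstream of the start codon, had 307 counts with cabozantinib and 215 in DMSO, a log2 ratio of 0.57 (0.31 to 0.83). RPS19, the gene most often mutated in Diamond-Blackfan anemia (chromosome 19, 42363988 to 42375484), had 6955 counts (281 CPM) with cabozantinib and 5511 counts (214 CPM) in DMSO. Its log2 ratio of 0.39 (0.34 to 0.44) was the highest of any member with at least 1000 counts in each library. An uncharacterised gene on the opposite strand (Entrez 100505604) covers 28.6% of the RPS19 exons and had 0 counts with cabozantinib and 2 in DMSO. RPS27A, which is made as a fusion with ubiquitin, had 232 CPM with cabozantinib and 186 CPM in DMSO (log2 ratio 0.31, 0.26 to 0.37).

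RPS29, a zinc-binding protein of the subunit's head, had 2670 counts with cabozantinib and 3220 in DMSO, a log2 ratio of -0.21 (-0.29 to -0.14). RPS2, at the mRNA entry, had 25620 counts with cabozantinib and 29465 in DMSO (log2 ratio -0.14, -0.17 to -0.12). These were the only small subunit genes whose interval lay below 0 on the TMM scale. RPS6, the substrate of the S6 kinases, had 1273 CPM with cabozantinib and 1206 CPM in DMSO, a log2 ratio of 0.08 (0.05 to 0.10). RPSA, also known as the laminin receptor, had a log2 ratio of 0.21 (0.17 to 0.26) on 7817 counts with cabozantinib and 7015 in DMSO.

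By position in the ribosome, the 3 genes of the P stalk, which recruits the elongation factors, all lay slightly below 0 with TMM, with log2 ratios of -0.04 for RPLP0, -0.01 for RPLP1 (-0.03 to 0.01) and -0.08 for RPLP2. Their share of the large subunit counts, which no scaling moves, was 13.3% with cabozantinib (13.2% to 13.4%) and 14.10% in DMSO (14.02% to 14.18%). RPL5 and RPL11, which carry the 5S RNA into the subunit and bind MDM2 when assembly fails, had log2 ratios of 0.16 (0.13 to 0.18) and 0.07 (0.05 to 0.09). The 6 genes of the tunnel exit (RPL17, RPL19, RPL23A, RPL26, RPL31 and RPL35) had a median of 0.12, from 0.05 for RPL26 to 0.30 for RPL23A. The 14 genes of the head of the small subunit had a median of 0.07, from -0.21 for RPS29 to 0.95 for RPS28. The 19 members listed for Diamond-Blackfan anemia had a median of 0.07, against 0.11 for the other 63 measured members, and 3 of the 19 (RPS19, RPS26 and RPS28) were higher past 1.2-fold, against 23.1% of all measured genes. The 28 members that hold snoRNA genes within their bounds on the same strand, 57 in all, had a median of 0.12, against 0.08 for the 54 others measured.

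The lowest log2 ratio of the measured members was that of a paralog. RPL39L (chromosome 3, 186838741 to 186857263), the copy of RPL39 known from testis and many cancer cells, had 22.7 CPM with cabozantinib and 38.3 CPM in DMSO, a log2 ratio of -0.75 (-0.91 to -0.60). RPL39, which lines the exit tunnel, had 1356 counts with cabozantinib and 1156 in DMSO, a log2 ratio of 0.29 (0.17 to 0.40). RPL39L took 29.3% of the 1918 counts of the pair with cabozantinib (27.3% to 31.4%) and 46.1% of the 2143 in DMSO (43.9% to 48.2%). The log2 ratio of the 2 ratios was -1.04 (-1.23 to -0.85), a value that no scaling of the libraries moves. The coding sequences of the pair in GENCODE 29 are 156 bases each and differ at 8, with a longest shared run of 44 bases, and the counting of reads that match both is not given in the sources used.

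The other measured paralogs had smaller shifts, all but RPL26L1 within counting error. RPL26L1 took 4.16% of its pair with RPL26 with cabozantinib and 3.38% in DMSO, a log2 ratio of ratios of 0.31 (0.10 to 0.52). RPS27L, a target of p53, took 87.4% of its pair with cabozantinib and 84.8% in DMSO, but the interval of its ratio of ratios, -0.02 to 0.64, held no change. The ratios of ratios were 0.11 (-0.05 to 0.27) for RPL22L1 against RPL22 and 0.03 (-0.09 to 0.15) for RPL7L1 against RPL7. The identity of the aligned coding sequences, with gaps counted as differences, was 84.2% for RPL26L1 and its partner, of 438 bases each. For RPS27L and its partner it was 66.0%, or 200 of 303 aligned positions. The sequences compared had 303 bases for RPS27L and 255 for RPS27, so part of that difference is one of length. RPL3L and RPL10L were at 2 counts or fewer, and no ratio is given for them.

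**Figure D3:**
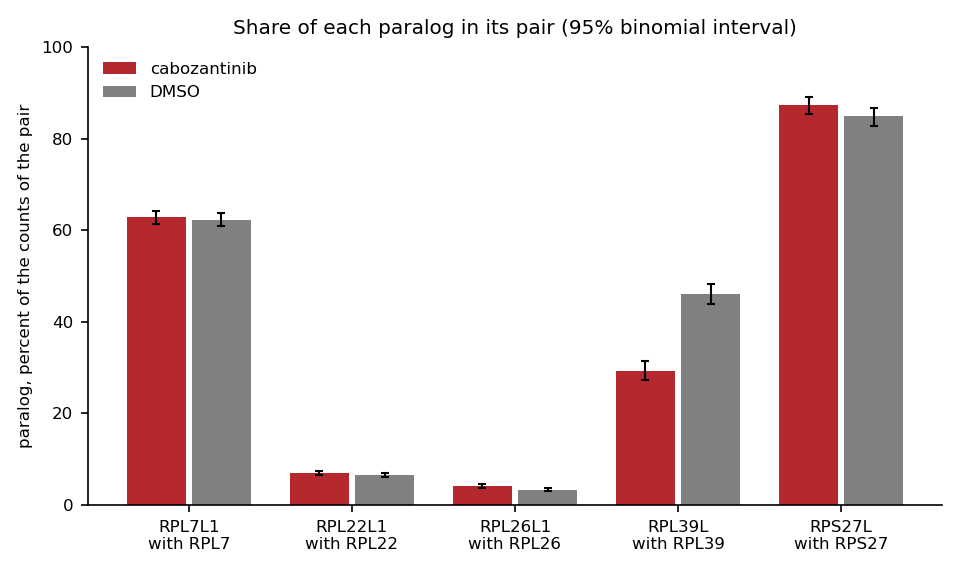
Counts on each paralog as a percent of the counts of the paralog and its canonical partner (vertical axis, 0 to 100) in the cabozantinib library (left bar of a pair, red) and the DMSO library (right bar, gray), with exact 95% binomial intervals that cover counting error only. RPL39L takes 29.3% of its pair with cabozantinib and 46.1% in DMSO, and the other 4 pairs differ by a few percentage points. RPS27 rests on 168 counts with cabozantinib and 192 in DMSO, and the counting of reads with several alignments is not given.

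Levels per length covered a wide range within the family. Among the canonical genes, mean TPM over the libraries ran from 16.5 for RPL36A to 4764 for RPLP1, 288-fold. The highest large subunit genes were RPLP1, RPL11 (4213 TPM) and RPL19 (3729 TPM), and the highest small subunit gene was RPS3 (4153 TPM). The lowest small subunit genes were RPS28 (19.1 TPM), RPS26 (29.7 TPM) and RPS27 (40.2 TPM). The order was nearly the same in both libraries, with a Spearman rho of 0.995 over 77 genes, a description of genes that share their libraries. In each library 24 of the 100 genes of highest CPM were members. The TPM rest on the annotated exon length of each gene, which can include exons that K562 does not use.

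**Figure D4:**
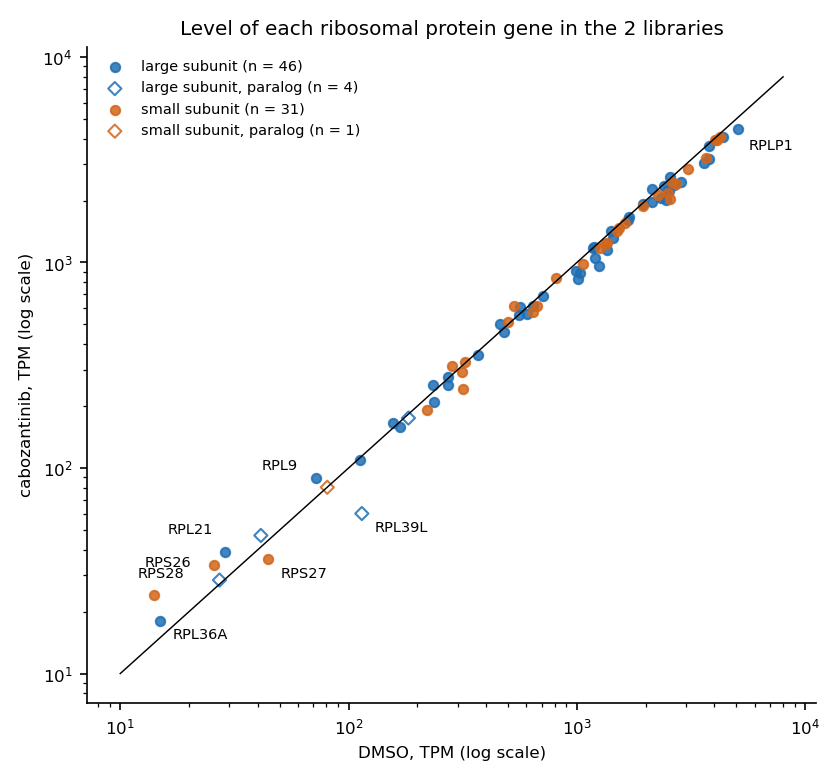
Level of each measured member in TPM (both axes on a log scale), with cabozantinib on the vertical axis and DMSO on the horizontal axis; the line marks equal TPM, filled circles are canonical genes and open diamonds are paralogs, colored by subunit. The points follow the line from RPL36A (16.5 TPM on average) to RPLP1 (4764 TPM), with RPL39L below it and RPS28 above it; the abundant genes lie slightly below the line, on a scale that is shared with the globins (118591 TPM with cabozantinib, 46692 TPM in DMSO).

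The genes with the larger log2 ratios were the low ones. In the 26 lowest canonical genes by TPM (up to 584 TPM) the median log2 ratio was 0.20 on the TMM scale and 22 lay above 0. In the next 26 the median was 0.08 and 21 lay above 0, and in the 25 highest (from 2053 TPM) it was 0.02 and 14 lay above 0. Spearman's rho of mean TPM and log2 ratio was -0.37 over the 77 genes. The 9 measured members with under 1000 counts in a library had a median of 0.45, and the 73 others 0.08. Among these 73, 0 members passed 1.5-fold and 5 passed 1.2-fold. Among all measured genes 8.15% were higher and 12.3% lower past 1.5-fold, and 23.1% were higher and 23.4% lower past 1.2-fold. The shares among genes of at least 1000 counts in each library are not given.

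Many of the low genes have many pseudogenes, which share their sequence. GENCODE 29 names 1145 pseudogenes after 77 of the 84 members, with a median of 8.5 over the members and up to 91 for RPL23A. RPL21 has 66, RPS26 30 and RPL36A 19, but RPS28 only 3. Spearman's rho of the number of pseudogenes and mean TPM was -0.43. The counting of reads with several alignments is not given in the sources used, and its part in these levels and ratios was not tested. The deposited counts list 31 such copies of 18 members, and some copies held more counts than the gene they copy. RPL13AP5 held 53434 counts with cabozantinib and 55918 in DMSO, against 12458 with cabozantinib and 14026 in DMSO for RPL13A. RPSAP58, which RefSeq types as protein-coding under the name RPSA2, held 39450 counts with cabozantinib and 40603 in DMSO, against 7817 with cabozantinib and 7015 in DMSO for RPSA. RPL21P28 held 401 counts with cabozantinib and 348 in DMSO. With the copies added, the log2 ratio of RPSA was 0.05 in place of 0.21 and that of RPL13A was -0.03 in place of -0.11. That of RPL21 was 0.39 and that of RPS26 was 0.61. The 18 members with a listed copy had a median of 0.10, as did the 64 measured members without one.

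**Figure D5:**
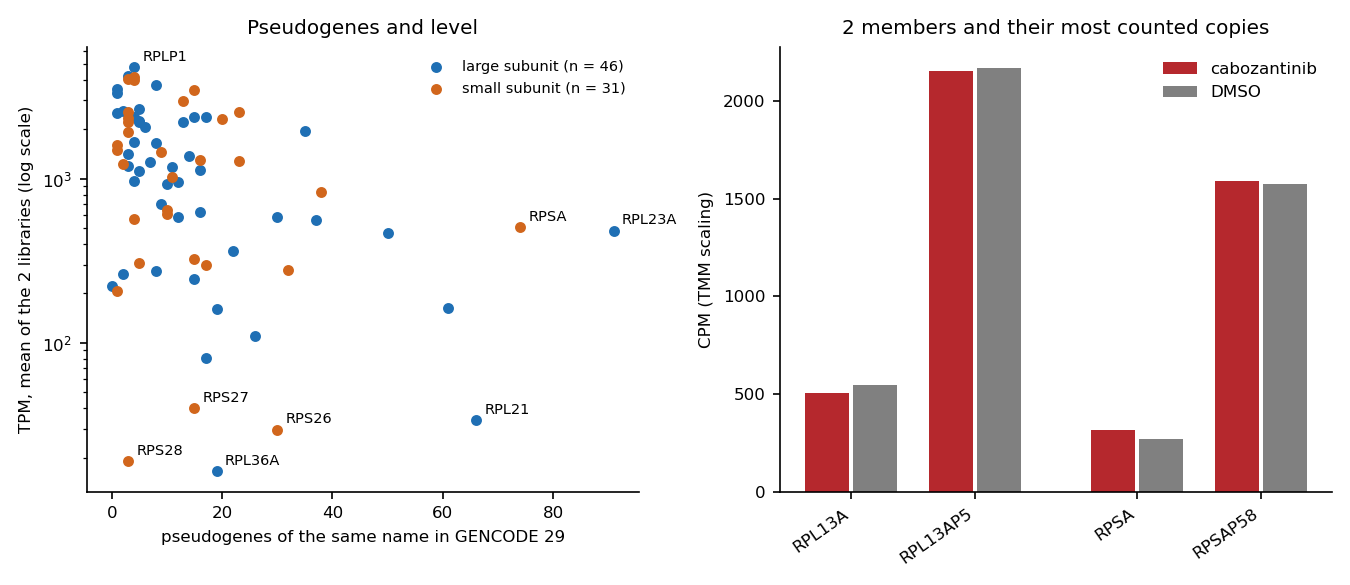
Left, mean TPM of each canonical gene (log scale) against the number of pseudogenes of the same name in GENCODE 29, colored by subunit; right, CPM of 2 members and of their most counted copies in the cabozantinib (red, left bar) and DMSO (gray, right bar) libraries. The genes with the most pseudogenes lie in the lower part of the range on the left, and each copy on the right exceeds its member in both libraries.

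The genes that share the TOP motif or serve the family were described beside it, from lists chosen for this purpose. Of the 20 other TOP genes measured, which encode elongation and initiation factors and related proteins, 2 were higher and 1 lower past 1.2-fold, against 23.1% and 23.4% of all measured genes, and their median log2 ratio was 0.04. EIF4A2, an initiation helicase, had 460 CPM with cabozantinib and 318 CPM in DMSO (log2 ratio 0.53), and HNRNPA1 had a log2 ratio of 0.40. EEF2, the factor that moves the ribosome along the mRNA, had 3673 CPM with cabozantinib and 4811 CPM in DMSO (log2 ratio -0.39, -0.40 to -0.38). The fusion gene FAU, whose ribosomal protein the symbol does not show, had a log2 ratio of 0.01 (-0.03 to 0.05).

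The 78 mitochondrial ribosomal protein genes had a median of 0.04, with 15 higher and 8 lower past 1.2-fold (23.1% and 23.4% of all measured genes), and a spread between the quartiles of 0.30. Of 7 chaperones that guard single ribosomal proteins, 3 were higher and 1 lower past 1.2-fold. GRWD1, which binds RPL3, had 91.0 CPM with cabozantinib and 56.1 CPM in DMSO (log2 ratio 0.70), and BCCIP, which binds RPL23, had 186 CPM with cabozantinib and 122 CPM in DMSO (log2 ratio 0.61). PDCD2, a chaperone of RPS2, had a log2 ratio of 0.50 and its relative PDCD2L one of -0.29. Their clients RPL3, RPL23 and RPS2 had log2 ratios of -0.01, 0.26 and -0.14. Of 11 regulators of TOP mRNAs, TSC1 was higher (log2 ratio 0.50) and EIF4EBP1 and RPTOR were lower past 1.2-fold. EIF4EBP1, an inhibitor of cap-dependent initiation, had 98.1 CPM with cabozantinib and 174 CPM in DMSO (log2 ratio -0.83), whereas LARP1 (0.18) and MTOR (0.03) stayed within 1.2-fold.

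The promoter run did not separate the log2 ratios. The 43 members with the run had a median of 0.08, from -0.14 to 0.60, and the 23 measured members without it had a median of 0.13, from -0.21 to 0.95.

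The libraries held 25505289 counts with cabozantinib and 25025243 in DMSO. The 7 erythroid markers summed to 36889 CPM with cabozantinib and 13158 CPM in DMSO, so the cells carried the marks of their line in both, and all 7 were higher past 1.2-fold. Summed levels of the other markers were 3.07 CPM with cabozantinib and 11.1 CPM in DMSO for 3 lymphocyte genes, and 9.04 CPM with cabozantinib and 16.9 CPM in DMSO for the monocyte genes CD14 and LYZ. CD3E was at 0.0807 CPM with cabozantinib and 0.272 CPM in DMSO, and CD14 at 0.242 CPM with cabozantinib and 0.194 CPM in DMSO. The 5 fibroblast and epithelial genes summed to 394 CPM with cabozantinib and 535 CPM in DMSO, nearly all from KRT8, KRT18 and EPCAM. The part of these differences in the results above was not tested. In the authors' deposited table, a posterior probability of differential expression of at least 0.95 was given to 4.66% of 17392 genes and to 0 members. The highest among members in the authors' deposited table were 0.567 for RPL39L and 0.552 for RPS28.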

How the data were processed

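RNA was sequenced from 2 libraries, and the group of each came from its treatment label. The authors deposited raw counts, whole numbers for each Entrez gene. Per the file headers the reads were aligned with Rsubread to hg19, a build the submitters' processing notes also name. The strand setting, the treatment of reads with several alignments and the tool versions are not given in the sources used. The authors' deposited table gives symbols, a score from 0 to 1 (the posterior probability of differential expression) and a fold ratio per gene, and 4 further columns of values per library that carry no sample label were not used. Members and lists were chosen with earlier results of these data known, and the copy RPL36AL after its values were seen.

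Library sizes were multiplied by TMM factors from edgeR 4.0.16 (0.971 for cabozantinib and 1.03 for DMSO) over all genes. The log2 ratio used counts plus a pseudocount of 0.5. TPM was computed from the deposited counts and exon lengths. No test between the conditions can be made with 1 library each, and no p-value is given. Members named are, per subunit, the 4 highest and 4 lowest by the interval bound nearest no change and the 3 highest and 3 lowest by level, with the P stalk, 5S, RPS6, RPS19, RPSA, RPS27A and paralog genes whatever their values, and up to 2 each way per other list; others appear as examples, and a few are not reported here. A median counted as moved under an alternative when it left the interval of its middle member or members, which is not an error of the median. The interval code was tested on simulated counts. Alternatives covered scaling (size factors of DESeq2 1.42.0, total counts and the upper quartile), filters, the pseudocount, the deposited fold, paralogs and copies. Promoter sequences are RefSeq's, on GRCh38.p14, and gene positions those of the deposited annotation on hg19.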

Additional observations from a re-analysis of the deposited data

How the results depend on the processing

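No paired analysis was possible because each group holds 1 library, and for the same reason no replicate could be left out. Of 82 values recomputed under alternatives, 58 kept their direction and stayed within their interval (for counts of members, within 1.5 times), 20 moved by more and 4 turned sign. By total counts the median log2 ratio was 0.0147 for members, 0.0270 for the large subunit and -0.00314 for the small subunit, which turned sign. On that scale 6 members were higher and 3 lower past 1.2-fold, and the shares of all measured genes are not given. With only genes of at least 100 CPM, 0 members passed 1.5-fold and 4 passed 1.2-fold. Of all 2702 genes of that level, 195 were higher and 179 lower past 1.5-fold, and 27.3% were higher and 16.9% lower past 1.2-fold. With this filter the large minus small difference turned to -0.00777. On means it turned to -0.0223, with 0.121 for the small subunit, and on summed CPM to -0.0194, with 0.0493 for the large subunit. With at least 1000 counts in each library, an alternative added after seeing the data, 0 members passed 1.5-fold and 5 passed 1.2-fold. The shares of all genes with that many counts are not given. The share of counts on members was 5.01% with cabozantinib and 4.94% in DMSO without mitochondrial genes and globins, 4.55% with cabozantinib and 4.64% in DMSO without the paralogs, and 5.03% with cabozantinib and 5.15% in DMSO with the copies added. The large subunit share of member counts was 59.9% with cabozantinib and 60.3% in DMSO without the paralogs, 58.5% with cabozantinib and 58.9% in DMSO per kb of exon, and 60.6% with cabozantinib and 61.0% in DMSO with the copies added. The counts limit the low genes most: RPS28 and RPL36A rest on 66 to 123 counts a library, and every interval leaves out the variation between cultures.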

Other observations

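RPL36AL, a functional copy of RPL36A whose symbol the rule does not match, was looked at after its values were seen. It had 2546 counts (103 CPM) with cabozantinib and 1880 counts (73.0 CPM) in DMSO, a log2 ratio of 0.49 (0.41 to 0.58). RPL36A itself had a log2 ratio of 0.45 (0.02 to 0.88) on 109 counts with cabozantinib and 83 in DMSO, so the copy carried most of the counts of the pair in both libraries. The listed copies of all members together held 0.459% of all counts with cabozantinib and 0.491% in DMSO.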
